A study of Rattus norvegicus with 6 samples.

Results

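The genes described here belong to the interferon response and to class I antigen presentation. A list of 45 gene symbols, drawn up with earlier results of these data known, was matched to the gene symbols of the count table, and 34 of them had a row among the 14475 rows. The other 11 names (Ddx58, Ifit1, Irf9, Isg15, Mx1, Oas1a, Oasl, Psmb10, Rigi, Rsad2 and Tapbp) were not matched under those symbols and were not analysed here. The counts came from vascular smooth muscle (VSM) cells grown in culture from soleus feed arteries (SFA), which supply the soleus muscle, of Fischer 344 rats. The young group held 3 libraries from rats of 4 months and the old group 3 libraries from rats of 24 months. No genetic change and no agent is named for the RNA samples of either group. The study counts rats as its replicates, while the sample labels number the replicates without naming animals. The p-values therefore measure the spread between these 6 libraries, and the culture step is part of that spread. Total counts per library lay between 44235674 and 59700887. Expression is given as CPM, counts divided by the library size after TMM scaling, and SE is the standard error of a log2 fold change.

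Interferons are cytokines that cells release when they sense viral or misplaced nucleic acid. Type I interferon binds the receptor chains Ifnar1 and Ifnar2, and its signal reaches the nucleus through a complex with Stat2 and Irf9 that binds the interferon-stimulated response element. Interferon gamma binds Ifngr1 and Ifngr2 and acts at the gamma-activated site. The genes switched on in this way encode antiviral proteins, RNA sensors and the machinery that cuts proteins into peptides and shows them on class I molecules. VSM cells carry these receptors and can respond to both kinds of interferon.

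Promoter sequences were available for 29 of the 34 genes, and each covered 250 bases before to 50 bases after an annotated start. They are RefSeq sequences of the rat assembly GRCr8, a different assembly from the one the reads were aligned to. Ifit2, Ifitm1, Dhx58, Mx2 and Usp18 had no entry. Both strands were searched for the core of the response element, which is GAAA, any 2 bases and GAAA again, and for TTCNNNGAA, the gamma-activated site. The core was found in 15 of the 29 windows (51.7%), against 3.92% of all 33469 windows, some of which are alternative starts of the same gene. The gamma-activated site was found in 7 windows (24.1%), against 8.87% of all windows, and 18 windows (62.1%) held either motif, against 12.3% of all. The 6 windows printed below, 5′ to 3′ on the strand of the gene with the matches in capitals, belong to 5 genes whose age difference was among the clearest of the set and to Bst2, where the motifs overlap. With positions counted from the start, Ifi27 had the core at -169 and -84, and Samhd1 had the gamma-activated site at -153. In Bst2, overlapping core matches began at -131 and -125, and a gamma-activated site that began at -137 overlapped the upstream core. Neither pattern was present in the windows of Ifnar1, Stat2 and Trim25, which says only that these letters were not in these 300 bases. A match is a description of the sequence and does not show that a factor was bound.
Ifi27 (chr6:128355062-128355361, plus strand): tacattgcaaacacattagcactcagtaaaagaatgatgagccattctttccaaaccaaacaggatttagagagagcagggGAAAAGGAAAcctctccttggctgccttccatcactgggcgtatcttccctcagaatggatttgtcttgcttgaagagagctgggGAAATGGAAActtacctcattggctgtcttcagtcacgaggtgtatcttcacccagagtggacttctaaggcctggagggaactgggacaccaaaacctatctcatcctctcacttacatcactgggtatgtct
Bst2 (chr16:18254918-18255217, minus strand): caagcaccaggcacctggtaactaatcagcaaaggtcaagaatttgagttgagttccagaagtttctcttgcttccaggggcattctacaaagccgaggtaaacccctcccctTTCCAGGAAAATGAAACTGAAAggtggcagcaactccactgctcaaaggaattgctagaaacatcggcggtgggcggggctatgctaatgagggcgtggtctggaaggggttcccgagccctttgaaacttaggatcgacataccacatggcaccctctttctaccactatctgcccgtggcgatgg
Samhd1 (chr3:166214361-166214660, minus strand): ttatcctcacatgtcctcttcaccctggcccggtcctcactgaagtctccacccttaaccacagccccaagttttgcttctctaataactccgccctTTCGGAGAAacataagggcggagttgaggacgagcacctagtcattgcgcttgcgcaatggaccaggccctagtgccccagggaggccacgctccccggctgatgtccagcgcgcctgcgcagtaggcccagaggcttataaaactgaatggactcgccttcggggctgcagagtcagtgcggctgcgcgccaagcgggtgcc
Ifnar1 (chr11:44211519-44211818, plus strand): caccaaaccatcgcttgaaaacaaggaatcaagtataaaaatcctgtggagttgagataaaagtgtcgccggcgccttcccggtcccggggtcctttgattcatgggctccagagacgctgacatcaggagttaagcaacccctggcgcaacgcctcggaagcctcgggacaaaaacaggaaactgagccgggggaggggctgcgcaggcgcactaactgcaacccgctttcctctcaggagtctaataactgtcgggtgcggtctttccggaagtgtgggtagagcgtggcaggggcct
Stat2 (chr7:1286840-1287139, plus strand): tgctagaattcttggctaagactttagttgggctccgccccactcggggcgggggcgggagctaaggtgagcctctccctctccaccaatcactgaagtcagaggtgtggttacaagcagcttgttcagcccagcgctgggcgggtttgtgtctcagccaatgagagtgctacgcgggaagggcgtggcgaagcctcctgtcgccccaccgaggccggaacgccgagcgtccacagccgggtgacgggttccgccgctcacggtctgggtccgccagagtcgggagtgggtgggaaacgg
Trim25 (chr10:74309774-74310073, plus strand): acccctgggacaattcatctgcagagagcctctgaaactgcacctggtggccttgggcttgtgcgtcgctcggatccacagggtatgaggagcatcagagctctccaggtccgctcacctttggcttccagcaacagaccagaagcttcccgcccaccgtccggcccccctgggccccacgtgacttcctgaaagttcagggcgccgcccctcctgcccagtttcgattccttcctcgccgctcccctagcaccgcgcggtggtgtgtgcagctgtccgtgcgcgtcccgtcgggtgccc

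**Figure D1:**
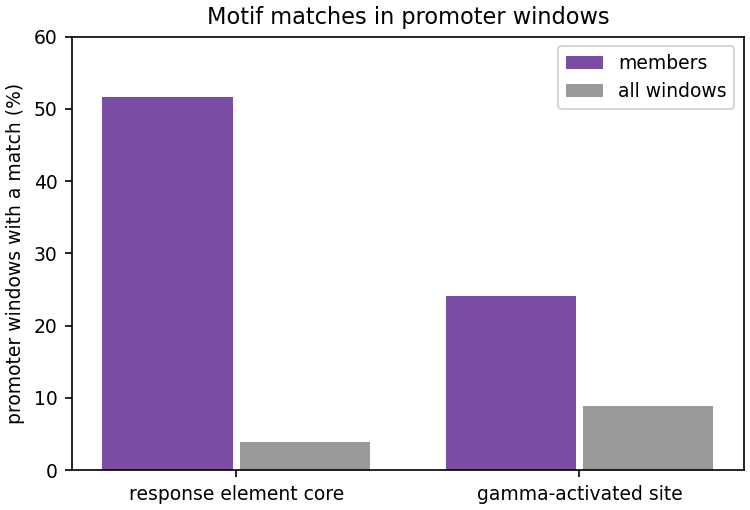
Bars give the percent of promoter windows with at least 1 match to each motif, for the 29 windows of the interferon genes and for all 33469 windows. Matches to the response element core were in 51.7% of the interferon gene windows and 3.92% of all windows.

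Before any comparison by age, young replicate 3 stood apart from the other libraries in these genes. It had the lowest of the 6 values in 15 of the 34 genes (44.1%), against 22.8% of all rows, and its median deviation from the gene means was -0.22 on the log2 scale, against -0.01 over all rows. The same library had the lowest summed levels of fibroblast (731 CPM), macrophage and other leukocyte (5.13 CPM) and Schwann cell markers (12.4 CPM), and the highest of smooth muscle (21089 CPM) and skeletal muscle markers (382 CPM). The part of these levels in its low interferon gene values was not tested. Young replicate 2 was lowest in 0 of the 34 genes, against 10.7% of all rows. In 10 genes (29.4%, against 14.5% of all rows), replicate 3 was the lowest library of both age groups, namely Bst2, Dhx58, Ifitm2, Ifitm3, Ifnar2, Psmb8, Psmb9, Samhd1, Stat3 and Usp18. Among the 30 genes with a mean of at least 1 CPM, the median coefficient of variation was 12.7% in young and 15.9% in old. Over all 12257 rows at that level it was 9.94% and 14.6%.

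**Figure D2:**
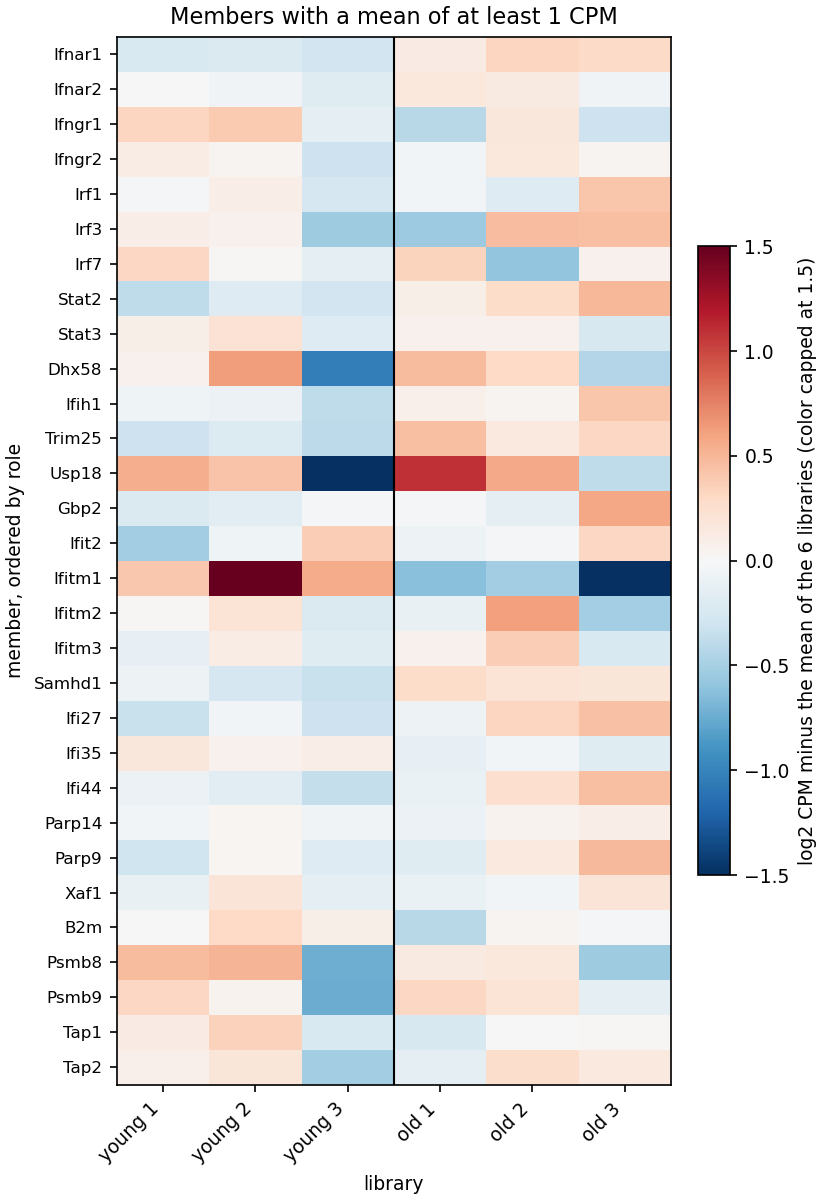
Colors give the log2 CPM of each of the 30 genes with a mean of at least 1 CPM, minus the mean of that gene over the 6 libraries. They are capped at 1.5 in either direction. Of the 34 genes, 15 had their lowest value in young replicate 3, and 1 of these, Bst2, is not shown because its mean was under 1 CPM.

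Age differences of the interferon genes were small, and edgeR called none of the 34 genes at an adjusted p under 0.05 and a log2 fold change of 1 or more in either direction. Over the whole table the same rule called 1 gene, or 0.00691% of the rows. Ifnar1, Trim25 and Stat2 had the smallest adjusted p-values, between 0.0648 and 0.09, and all 3 were higher in old VSM cells. These 3 genes passed an adjusted p under 0.1 with no minimum fold, as did 4.55% of all rows. At an unadjusted p under 0.05, edgeR gave 5 genes higher in old (11.2% of all rows) and 1 lower (11.5% of all rows), together 17.6% of the genes against 22.6% of all rows. DESeq2 called 1 of the 34 genes (2.94%), Ifitm1, against 5.82% of the 13622 rows to which it gave an adjusted p. Without the minimum fold, DESeq2 gave 4 of the 34 genes an adjusted p under 0.05 (11.8%, against 13.0% of all rows), namely Ifnar1, Trim25, Stat2 and Ifitm1. limma-voom called 0 of the 34 genes and 0 of all rows, and gave 6 of the 34 an unadjusted p under 0.05 (17.6%, against 23.1% of all rows). Counted over both directions, these shares were below or near those of the whole table, apart from the edgeR threshold of 0.1. In bulk RNA, fewer cells of a type and less RNA per cell cannot be told apart.

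The fitted log2 fold change (old minus young) was above 0 in 24 of the 34 genes (70.6%), against 52.0% of all rows, and the median was 0.14 against 0.02 over all rows. The values ran from -1.90 to 1.40, and 26 genes (76.5%) lay within 0.5 of zero in either direction, against 71.4% of all rows. Without young replicate 3, the fold changes of Dhx58 (-0.22), Ifitm2 (-0.03), Ifngr2 (-0.03), Psmb9 (-0.05), Tap2 (-0.03) and Xaf1 (-0.03) were below 0. No gene moved from below 0 to above it in that fit, and the share of all rows above 0 was not counted there. The median over the 34 genes was 0.04 without young replicate 3 and 0.23 without young replicate 2, so 1 library decided much of its size. The old libraries did not overlap the young ones in 7 genes (20.6%, against 29.2% of all rows). Old was above young in 5 of these 7 (14.5% of all rows) and below in 2 (14.7% of all rows). The 5 were Ifnar1, Stat2, Trim25, Ifih1 and Samhd1, and the 2 were Ifitm1 and Ifi35.

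**Figure D3:**
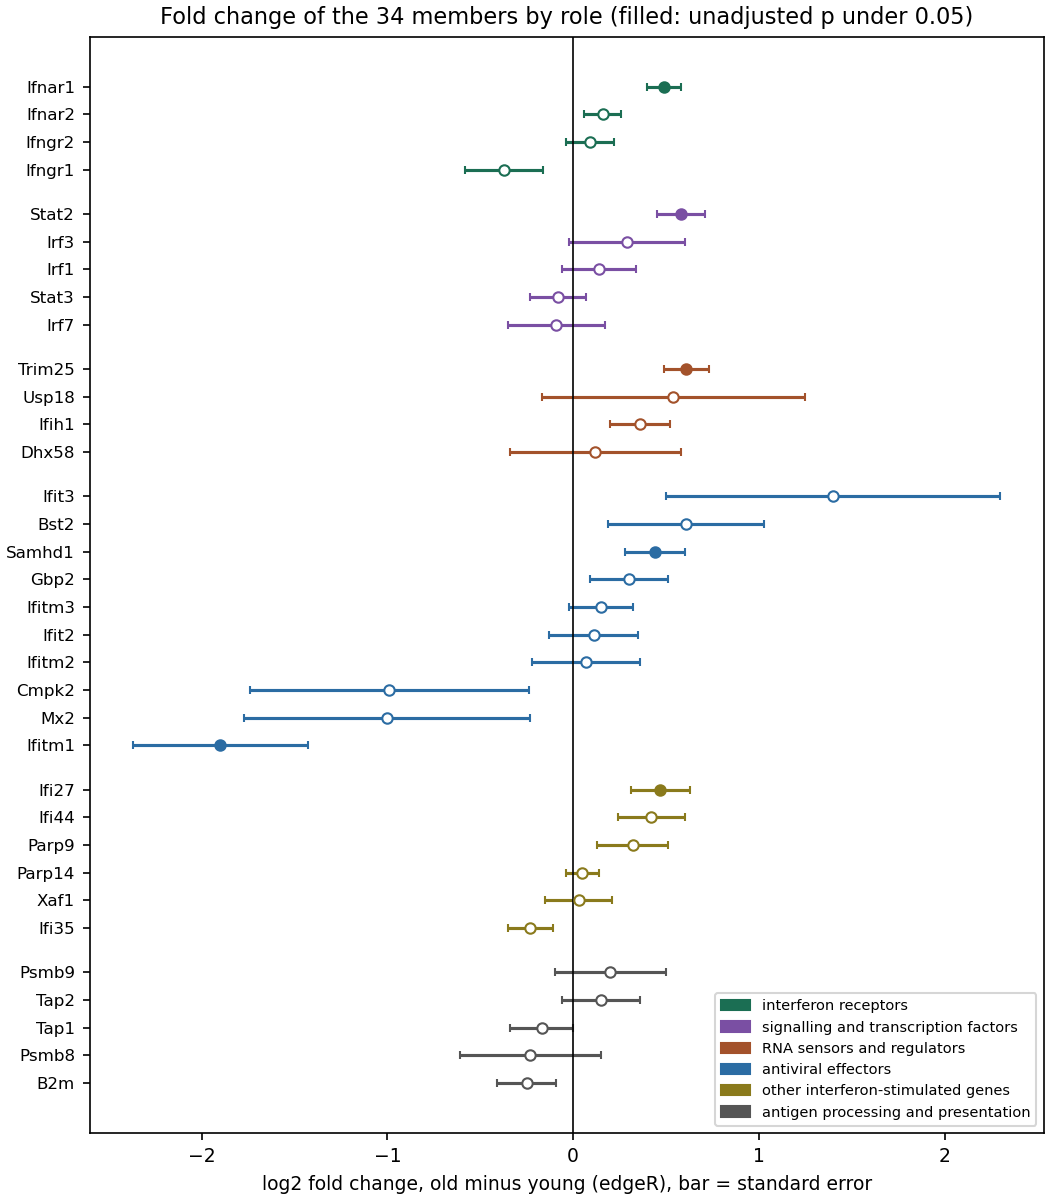
Points give the edgeR log2 fold change (old minus young) of each of the 34 genes, grouped by role, bars give the SE and filled points have an unadjusted p under 0.05. Ifitm1 lay lowest at -1.90 and Ifit3 highest at 1.40 with a SE of 0.90, while most genes lay within 0.5 of zero.

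All 4 interferon receptor chains were measured, and 3 of them had a fold change above 0, with a median of 0.13, which was 0.04 without young replicate 3 and 0.08 without old replicate 2. Ifnar1, the chain that with Ifnar2 forms the type I receptor, had 71.6, 71.9 and 69.0 CPM in young replicates 1, 2 and 3 and 91.4, 105 and 102 CPM in old replicates 1, 2 and 3. The old libraries were all above the young ones, and the young libraries were close to each other at 70.8 ± 1.63 CPM (SD, n = 3) against 99.5 ± 7.11 CPM in old. The log2 fold change was 0.49 with a SE of 0.09 (edgeR adjusted p = 0.0648, DESeq2 adjusted p = 7.02e-05). Ifnar2 differed less, with a log2 fold change of 0.16 (SE 0.10), and its groups overlapped. Ifngr1, which binds interferon gamma, had 95.1, 100 and 68.6 CPM in young and 57.1, 85.9 and 61.3 CPM in old. Young replicate 3 lay among the old libraries, and the log2 fold change of -0.37 (SE 0.21) did not pass (edgeR adjusted p = 0.332). Ifngr2, the other chain of that receptor, had a log2 fold change of 0.09 (SE 0.13), which was -0.03 without young replicate 3.

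The ratio of Ifnar1 to Ifngr1 counts within a library does not depend on how libraries are scaled. It was 0.753, 0.716 and 1.01 in young and 1.60, 1.22 and 1.67 in old, so that all old libraries were above all young ones. The difference of the log2 ratio was 0.86 (SE 0.21, exact two-sided permutation p = 0.10, n = 3 per group). With 3 libraries against 3 this is the smallest p the test can give, and it was 0.13 after adjustment over the 4 ratios examined. The 4 ratios were chosen with earlier results of these data known. Each rests on the same counts as the fold changes of its genes, so the ratios are no separate support.

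Among the signalling proteins and transcription factors, 5 of 6 names had a row, 3 with a fold change above 0 and 2 below, and the median was 0.14. This median was 0.01 without old replicate 3, 0.05 without young replicate 3 and 0.22 without young replicate 2. Stat2, which carries the type I interferon signal, had 35.4, 40.3 and 37.9 CPM in young and 49.1, 55.8 and 65.3 CPM in old. The groups were separate, at 37.9 ± 2.45 against 56.8 ± 8.15 CPM (SD, n = 3), and the log2 fold change was 0.58 with a SE of 0.13 (edgeR adjusted p = 0.0900, DESeq2 adjusted p = 0.00448). Irf3, the factor that starts interferon production after nucleic acid is sensed, had 43.7, 42.6 and 28.2 CPM in young and 28.0, 56.0 and 55.9 CPM in old. Young replicate 3 and old replicate 1 had nearly the same low level, the other old libraries were the highest of the 6, and the log2 fold change of 0.29 (SE 0.31) did not pass. Irf1, which drives class I presentation genes, Irf7, which amplifies interferon production, and Stat3, which relays interleukin-6 family signals, had log2 fold changes of 0.14, -0.09 and -0.08. In each of these 3 genes the groups overlapped and the sign changed when 1 library was left out.

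**Figure D4:**
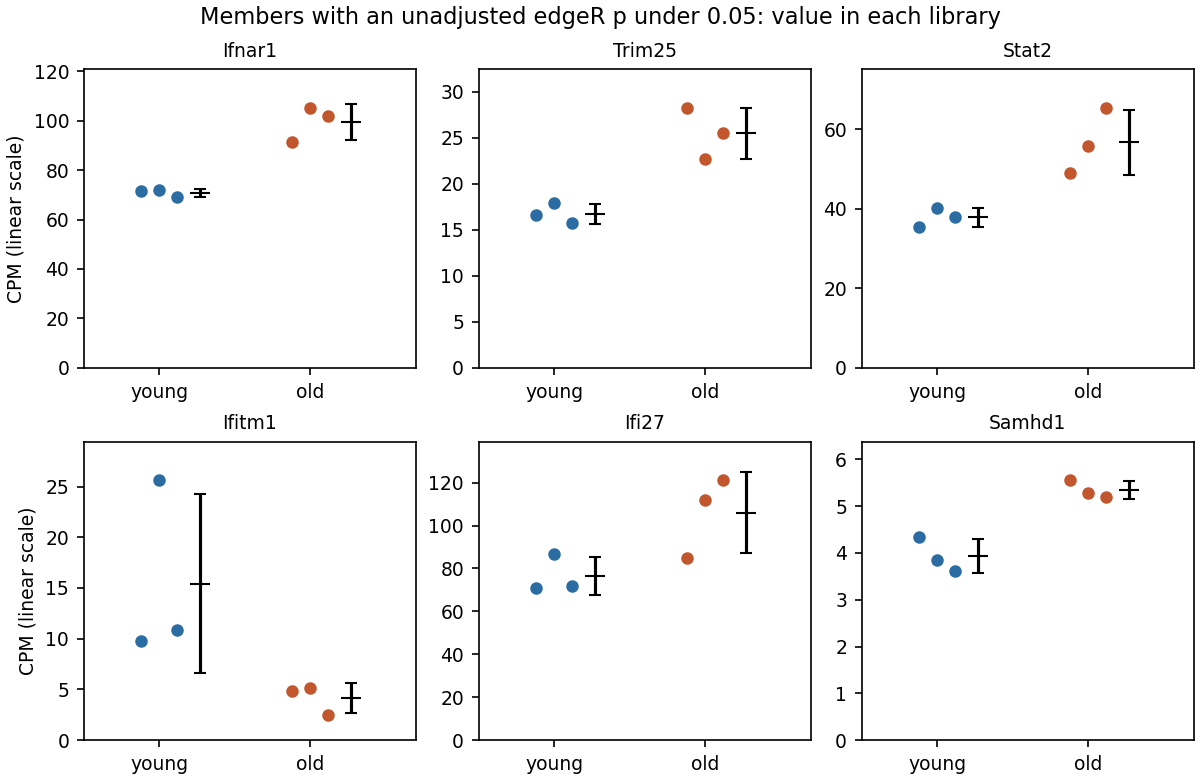
Each panel shows 1 of the 6 genes with an unadjusted edgeR p under 0.05, with a point for the CPM of each library on a linear axis from 0 and a bar for the mean ± SD of each age group (n = 3). Old libraries lie above young ones in Ifnar1, Trim25, Stat2 and Samhd1, below them in Ifitm1, and overlap them in Ifi27.

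RNA sensors and their regulators were the role group with the highest median, 0.45, with 4 of 7 names measured and all 4 above 0. Without young replicate 3 this median was 0.16, and without old replicate 1 it was 0.29. Trim25, a ubiquitin ligase that helps activate the sensor RIG-I, had 16.6, 17.9 and 15.7 CPM in young and 28.2, 22.7 and 25.5 CPM in old. The groups were separate, at 16.7 ± 1.10 against 25.5 ± 2.75 CPM (SD, n = 3), with a log2 fold change of 0.61 and a SE of 0.12 (edgeR adjusted p = 0.0741, DESeq2 adjusted p = 0.000928). Ifih1, which encodes the double-stranded RNA sensor MDA5, had 9.57, 9.44 and 7.73 CPM in young and 10.6, 10.3 and 13.4 CPM in old. All old libraries were above all young ones, but by a small margin in old replicate 2, and the log2 fold change of 0.36 (SE 0.16) had an edgeR adjusted p of 0.243. Usp18, a protease that removes Isg15 from proteins and dampens type I receptor signalling, had 3.10, 2.86 and 0.448 CPM in young and 4.54, 3.16 and 1.64 CPM in old. It was lowest in replicate 3 of both groups, its log2 fold change of 0.54 had a SE of 0.71, and without young replicate 3 the fold change was 0.06. Dhx58, which encodes the RIG-I-like protein LGP2, had a log2 fold change of 0.12 (SE 0.46) with overlapping groups. The names Ddx58 and Rigi both refer to the RIG-I gene, for which RefSeq gives the rat symbol Rig1. A row with that symbol, which the list did not name, had 17.0, 18.4 and 14.3 CPM in young and 17.2, 22.0 and 20.1 CPM in old (log2 fold change 0.25, SE 0.14, edgeR adjusted p = 0.332).

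The antiviral effectors had 10 of 15 names in the table, 7 with a fold change above 0 and 3 below, and a median of 0.13. The median was 0.07 without old replicate 2, 0.21 without young replicate 2 and 0.22 without young replicate 3. Ifitm1, a membrane protein that blocks virus entry, showed the largest difference toward young of all 34 genes. It had 9.79, 25.6 and 10.9 CPM in young and 4.80, 5.18 and 2.44 CPM in old. Every old library was below every young one, and young replicate 2 stood well above the other young libraries. The means were 15.5 ± 8.84 and 4.14 ± 1.48 CPM (SD, n = 3), and the log2 fold change was -1.90 with a SE of 0.47 (edgeR adjusted p = 0.108, DESeq2 adjusted p = 0.00122). Ifitm1 was thus downregulated in the DESeq2 test and did not pass the edgeR test, and its fitted fold change was -1.32 without young replicate 2.

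The closely related Ifitm2 and Ifitm3, which lie on either side of Ifitm1 in the GRCr8 gene order, had log2 fold changes of 0.07 and 0.15. Both had overlapping groups, with Ifitm3 at 252, 297 and 242 CPM in young and 287, 354 and 235 CPM in old. The ratio of Ifitm1 to Ifitm3 counts was 0.0388, 0.0864 and 0.0451 in young and 0.0167, 0.0146 and 0.0104 in old. The groups were separate, with a difference of -1.96 on the log2 scale (SE 0.41, exact two-sided permutation p = 0.10, adjusted over 4 ratios 0.13, n = 3 per group). This ratio uses the same Ifitm1 counts as the fold change given above and largely restates it. Reads shared between Ifitm genes could move counts between them, and how such reads were counted is not given in the sources used here.

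Samhd1, an enzyme that breaks down the nucleotides needed for reverse transcription, was higher in old by a log2 fold change of 0.44 (SE 0.16, edgeR adjusted p = 0.188). It had 4.34, 3.86 and 3.62 CPM in young and 5.55, 5.29 and 5.19 CPM in old, with separate groups and a narrow spread within each. Ifit3, whose protein works with other Ifit proteins against foreign RNA, had the highest fold change at 1.40, with a SE of 0.90. Its values were 0.0443, 0.532 and 0.570 CPM in young and 0.704, 0.423 and 1.94 CPM in old, so that old replicate 2 lay below young replicates 2 and 3. The young replicate 1 value rested on 2 counts, and without old replicate 3 the log2 fold change was 0.54. The neighboring Ifit2 was more even, with 53.8, 73.9 and 100 CPM in young and 73.3, 76.5 and 95.7 CPM in old.

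The other effectors had overlapping groups and no unadjusted p under 0.05. Bst2, which tethers budding virus to the cell, and Gbp2, a GTPase induced by interferon gamma, had log2 fold changes of 0.61 and 0.30 with SEs of 0.42 and 0.21. Mx2, a dynamin-like antiviral GTPase, and Cmpk2, a nucleotide kinase of mitochondria, had log2 fold changes of -1.0 and -0.99 with SEs of 0.77 and 0.75. Both had 2 counts in old replicate 2, and without that library the values were -0.49 and -0.47. Bst2, Cmpk2, Ifit3 and Mx2 had means under 1 CPM.

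The 6 other interferon-stimulated genes were all in the table, 5 with a fold change above 0, and their median was 0.18. It was 0.07 without old replicate 3, 0.28 without young replicate 2 and 0.29 without old replicate 1. Ifi27, a mitochondrial protein that is a common readout of type I interferon, had 70.9, 86.7 and 71.8 CPM in young and 84.7, 112 and 121 CPM in old. Old replicate 1 was just below young replicate 2 and the other old libraries were higher, with a log2 fold change of 0.47 and a SE of 0.16 (edgeR adjusted p = 0.172, DESeq2 adjusted p = 0.0884). Ifi44 had 9.10, 8.71 and 7.55 CPM in young and 9.07, 11.5 and 13.3 CPM in old. As in Ifi27, old replicate 1 was the old library nearest to young, and the log2 fold change was 0.42 (SE 0.18, edgeR adjusted p = 0.226). Parp9 and Parp14, neighboring genes for ADP-ribosyltransferases of the interferon response, had log2 fold changes of 0.32 and 0.05 and overlapping groups. Xaf1, which promotes cell death, had a log2 fold change of 0.03 (SE 0.18). Ifi35 had 9.86, 9.19 and 9.38 CPM in young and 8.04, 8.54 and 7.71 CPM in old, a small separation with a log2 fold change of -0.23 (SE 0.12, edgeR adjusted p = 0.299).

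Without old replicate 1, the edgeR adjusted p was 0.0289 for Ifnar1, 0.0325 for Stat2, 0.0460 for Ifi27 and 0.0471 for Trim25. Their log2 fold changes stayed below 1, so none of the 4 was called by the full rule. Over the whole table, the full rule with its minimum fold called 732 rows without that library, against 1 with all libraries. An unadjusted p under 0.05 was given to 4686 of the 14475 rows, against 3277 with all libraries. The share of all rows with an adjusted p under 0.05 and no minimum fold was not counted in that fit, so the 4 genes have no like background beside them.

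Antigen processing was the only role group with more values below 0 than above, and none of its 5 measured genes (of 7 names) had an unadjusted p under 0.05 or separate groups. The median was -0.17, and it moved to -0.07 without young replicate 1, -0.02 without young replicate 2, -0.09 without old replicate 1, -0.04 without old replicate 3 and -0.27 without young replicate 3. B2m, the light chain of all class I molecules, had 557, 680 and 589 CPM in young and 417, 569 and 548 CPM in old, with old replicate 1 the lowest. Its log2 fold change was -0.25 (SE 0.16, edgeR adjusted p = 0.379). Tap1 and Tap2, which together pump peptides into the endoplasmic reticulum, had log2 fold changes of -0.17 and 0.15 (SEs 0.17 and 0.21). In both genes young replicate 3 was the lowest young library, and the value of Tap2 was -0.03 without it.

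Psmb8 and Psmb9 encode subunits of the immunoproteasome, which take the places of Psmb5 and Psmb6 when interferon induces them. Psmb8 had 6.42, 6.58 and 2.79 CPM in young and 5.09, 5.18 and 3.19 CPM in old, and Psmb9 had 6.20, 5.19 and 2.97 CPM in young and 6.19, 5.75 and 4.53 CPM in old. Both were lowest in young replicate 3 and next lowest in old replicate 3, and their log2 fold changes of -0.23 and 0.20 were within their SEs of 0.38 and 0.30. The 3 constitutive catalytic subunits all had fold changes below 0, with -0.36 for Psmb6, -0.25 for Psmb5 and -0.23 for Psmb7. Of these, 2 had an unadjusted edgeR p under 0.05, Psmb6 and Psmb5 (edgeR adjusted p = 0.156 and 0.167). At that unadjusted p, 11.5% of all rows were lower in old.

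The Psmb9 to Psmb6 count ratio was 0.109, 0.0995 and 0.0479 in young and 0.125, 0.134 and 0.111 in old. The groups were just separate, with a log2 difference of 0.61 (SE 0.38, exact two-sided permutation p = 0.10, adjusted over 4 ratios 0.13, n = 3 per group), which was 0.24 without young replicate 3. The Psmb8 to Psmb5 ratio was 0.0749, 0.0771 and 0.0314 in young and 0.0667, 0.0698 and 0.0466 in old. These groups overlapped and the log2 difference was 0.09 (SE 0.46, exact two-sided permutation p = 1.00, n = 3 per group).

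**Figure D5:**
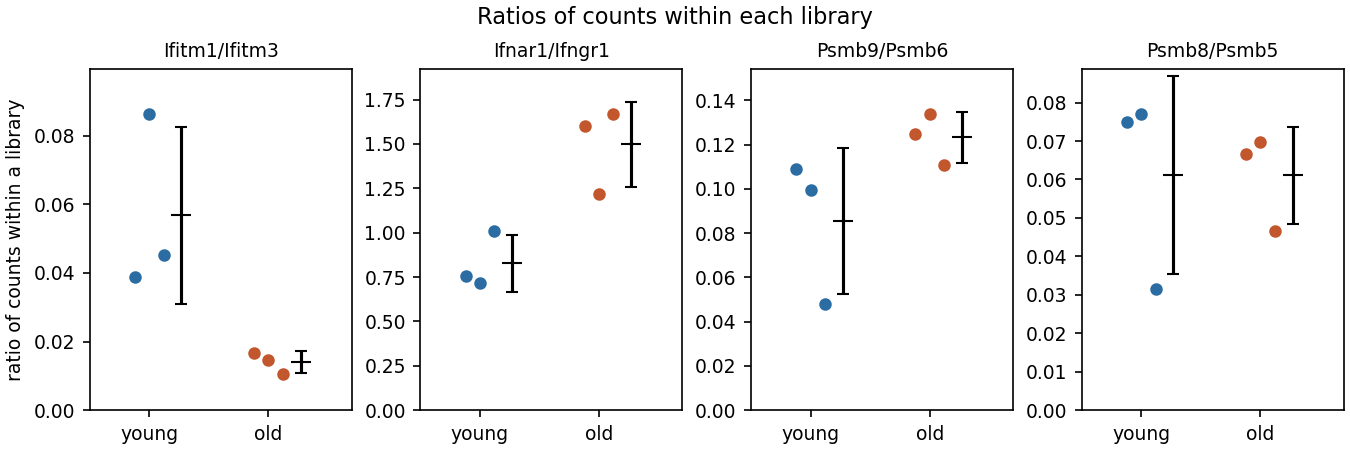
Each panel shows the ratio of the counts of 2 genes within each library (points) with the mean ± SD of each age group (bars, n = 3), on linear axes from 0. The groups are separate for Ifitm1/Ifitm3, Ifnar1/Ifngr1 and Psmb9/Psmb6 and overlap for Psmb8/Psmb5.

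Genes with the response element core in their promoter window had a median log2 fold change of 0.15, and those without it 0.18. For the gamma-activated site the medians were 0.15 and 0.17.

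Of the wider interferon pathway, interferon genes themselves were nearly unmeasured, with Ifne (log2 fold change 0.08, SE 0.80) the only 1 of 9 ligand names in the table. edgeR called none of the pathway genes described next, in any list, and the unadjusted p-values counted for them are from edgeR. DESeq2 called 3 of them, against 5.82% of the rows to which it gave an adjusted p. These were Irf8 and Cgas of the 16 sensing genes measured and Plscr1 of the 34 further interferon-stimulated genes measured. Irf8 had under 10 counts in every old library. At an unadjusted p under 0.05, edgeR gave 11.2% of all rows higher in old and 11.5% lower. Of the 11 Jak-Stat genes, all measured, 8 had a fold change above 0 and the median was 0.11. An unadjusted p under 0.05 was given to 3 (27.3%, against 22.6% of all rows), all higher in old. These were Irf2bp2, a corepressor that binds Irf2 (0.42, edgeR adjusted p = 0.0718, DESeq2 adjusted p = 0.000170), Irf2 (0.51, edgeR adjusted p = 0.159, DESeq2 adjusted p = 0.0694) and the kinase Jak2 (0.65, edgeR adjusted p = 0.194, DESeq2 adjusted p = 0.0973). Jak2 had 79.0, 77.5 and 76.8 CPM in young and 127, 159 and 79.1 CPM in old, so that old replicate 3 was at the young level.

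Nucleic acid sensing genes outside the 34 went both ways, with 16 of 21 names measured, 6 above 0 and 10 below, and a median of -0.04. At an unadjusted p under 0.05, 2 were higher and 4 lower, together 37.5% against 22.6% of all rows. Traf3, an adaptor between sensors and Irf3, had 50.8, 51.1 and 42.4 CPM in young and 31.2, 37.0 and 31.0 CPM in old. All old libraries were below all young ones, with a log2 fold change of -0.54 (SE 0.12, edgeR adjusted p = 0.0930, DESeq2 adjusted p = 0.00386). Cgas, the cytosolic DNA sensor, had 5.63, 5.27 and 7.10 CPM in young and 3.94, 2.06 and 1.53 CPM in old (log2 fold change -1.26, SE 0.38, edgeR adjusted p = 0.140, DESeq2 adjusted p = 0.0184). Irf8, a factor best known from myeloid cells, had 0.797, 2.64 and 0.285 CPM in young and 0.161, 0.173 and 0.0933 CPM in old. Young replicate 2 stood well above the other young libraries, and the old values rested on 8, 9 and 5 counts. The study's methods filter rows at 10 counts, which Irf8 reached only in the young libraries (36, 159 and 14 counts). Its row may therefore be present only through the group where it was high, and its call is no support for an age difference. The log2 fold change was -3.11 (SE 0.87, edgeR adjusted p = 0.127, DESeq2 adjusted p = 0.00753).

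A list of 45 further interferon-stimulated genes had 34 in the table, 22 with a fold change above 0 and 12 below, and a median of 0.04. At an unadjusted p under 0.05, 3 were higher and 4 lower, together 20.6% against 22.6% of all rows. Lgals3bp, a secreted glycoprotein, had 59.5, 83.9 and 74.6 CPM in young and 105, 122 and 159 CPM in old, with separate groups (log2 fold change 0.82, SE 0.20, edgeR adjusted p = 0.102, DESeq2 adjusted p = 0.00555). Sp110, a nuclear body protein, and Plscr1, a phospholipid scramblase, were lower, with log2 fold changes of -0.35 and -1.29 (edgeR adjusted p = 0.120 and 0.134, DESeq2 adjusted p = 0.0197 and 0.0135). Class I presentation genes outside the 34 had 12 of 18 names measured, 6 above and 6 below 0, and a median of -0.03. None had an unadjusted p under 0.05 in edgeR. DESeq2 and limma-voom each gave 1, against 3770 and 3347 of all 14475 rows. The 3 of smallest p in edgeR were RT1-N3, a class I heavy chain (-0.56, unadjusted p = 0.0533 in edgeR, 0.0341 in DESeq2 and 0.0409 in limma-voom), Psme1, a proteasome activator subunit (0.24), and Nlrc5, the class I transactivator (0.69). RT1 genes are a multigene family, so their counts are uncertain. Of 12 class II names, 2 had a row, Ciita (-0.79, SE 0.88) and RT1-DMa (-0.17, SE 0.38).

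The labelled cell type was checked with marker lists. All 8 smooth muscle markers were present, with summed levels of 11243 to 21089 CPM in young and 3467 to 5588 CPM in old. All 8 had a fold change below 0, and 7 had separate groups, while Des overlapped (log2 fold change -0.11). Over all rows, old lay wholly below young in 14.7%. All 8 fibroblast markers were present as well, with summed levels of 731 to 1261 CPM in young and 1588 to 2545 CPM in old. Of these, 7 had a fold change above 0, 3 with separate groups (old wholly above young in 14.5% of all rows). Mfap5 was below 0 (-0.16), with 595, 738 and 486 CPM in young and 494, 549 and 588 CPM in old. Of 12 macrophage and other leukocyte markers, 3 had a row (Cd68, Csf1r and Cd14), with summed levels of 5.13 to 16.0 CPM in young and 10.4 to 16.8 CPM in old. T and B cell markers were matched for 0 of 8 names. Endothelial markers had 4 of 8 names measured, at 4.01 to 13.6 CPM in young and 12.7 to 18.2 CPM in old. Skeletal muscle markers had 3 of 8, at 161 to 382 against 20.5 to 44.8 CPM, and Schwann cell markers 2 of 4, at 12.4 to 75.0 against 54.1 to 85.2 CPM. The smooth muscle, skeletal muscle and fibroblast levels moved with age beside every difference given above, and their part in those differences was not tested.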

How the data were processed

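RNA was sequenced from 6 cultures of VSM cells. The authors deposited raw gene counts, whole numbers without normalization. Per the study's methods and the submitters' processing notes, reads were trimmed (Trim Galore 0.6.7, Cutadapt 3.5), aligned to Rnor 6.0 with STAR 2.7.10b and counted with featureCounts (Subread 2.0.8). A RefSeq annotation is named, whereas the deposited counts carry Ensembl identifiers with symbols. How strand, multi-mapped reads and mates were handled is not given in the sources used here. Low rows had been removed before deposit. Of counts from 1 to 19, 68.7% to 71.1% were even in each library, which counting both mates of a pair would leave. The total counts of every library were also above the range of reads per sample that the study states. Low counts may therefore stand for fewer fragments than their number.

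Total counts per library were 44235674 to 59700887. Young and old libraries were compared over all 14475 rows (1518 without a symbol) with edgeR 4.0.16 in R 4.3.3 (TMM, quasi-likelihood F test, Benjamini-Hochberg adjustment over all rows, no covariates, no filter). Calls needed an adjusted p under 0.05 and a log2 fold change of 1 or more in either direction. Standard errors were obtained by dividing the size of the log2 fold change by the root of F. DESeq2 1.42.0 (Wald test, default settings, no adjusted p for 853 rows) and limma-voom (limma 3.58.1) served as alternatives, as did RLE size factors, library size only, a filter at a mean of 1 CPM, halved counts, the replicate number as a block, other thresholds and each library left out. The fits were tested on simulated data.

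The genes, role groups, pathway and marker lists and ratios were chosen with earlier results of these data known. Values in each library were given for genes with an unadjusted p under 0.05 or a DESeq2 call, for the 2 largest fold changes of each role group, and, outside that rule and chosen after their values were seen, for Ifih1, Ifi35, Ifit2, Ifitm3, Psmb9 and Rig1. Each pathway list is represented by its 3 genes of smallest p. Levels of different genes were not compared because no gene lengths of the files' build were used. An item withheld from the text is not reported here.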

Additional observations from a re-analysis of the deposited data

How the results depend on the processing

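Of the 34 genes, 23 kept the direction of their fold change under every alternative run (13, or 12 for the 4 genes under 1 CPM, which the filter removed), and 11 changed it only when 1 library was left out. Their lowest and highest log2 fold changes over those fits were Dhx58 -0.22 to 0.54, Ifit2 -0.09 to 0.36, Ifitm2 -0.31 to 0.29, Ifitm3 -0.02 to 0.28, Ifngr2 -0.03 to 0.17, Irf1 -0.07 to 0.26, Irf7 -0.30 to 0.13, Psmb9 -0.05 to 0.43, Stat3 -0.19 to 0.01, Tap2 -0.03 to 0.29 and Xaf1 -0.06 to 0.15. The Psmb8/Psmb5 log2 difference ran from -0.34 (without young replicate 3) to 0.31, and was -0.02 without old replicate 2. edgeR called 0 of the 34 genes in each fit with a library left out. In the edgeR fit with all 6 libraries, 3 passed an adjusted p under 0.1 with no minimum fold, while 0 passed 0.05 with no minimum fold. DESeq2 called 1, Ifitm1 (-1.91), and limma-voom 0. Over the whole table edgeR called 1 gene and DESeq2 793. With a library left out, the number higher in old at an unadjusted p under 0.05 ran from 3 (leaving out young replicate 3, or replicate 2 or 3 of old) to 7 (without old replicate 1), and the number lower from 1 to 2 (2 without young replicate 3 or old replicate 2). Over all rows, the share higher at that p was 15.7% without old replicate 1 and 7.07% to 8.32% without another library, and the share lower 16.7% and 7.68% to 8.72%. The number with separate groups ran from 9 to 14 with a library left out. This alternative was chosen after seeing the data, and fewer libraries make it easier to meet. The share of all rows was not counted under these alternatives, so the numbers say nothing particular to the 34 genes. With RLE size factors or library size only, the number with separate groups was 7. The cause of these changes was otherwise not tested. The deviations of same-numbered libraries had correlations of 0.032, 0.263 and 0.264. Those of unlike-numbered libraries ran from -0.401 to 0.294, the highest for young replicate 1 with old replicate 2, so the numbers were not taken as a pairing. With the replicate number as a block, edgeR called 0 genes, 4 were higher and 1 lower at an unadjusted p under 0.05, and the median was 0.15. Scaling by RLE or library size changed no direction. Halving the counts changed no call.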
